A study of Arabidopsis thaliana with 24 samples.

Results

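The RPS15a family of Arabidopsis thaliana consists of 6 genes, RPS15aA to RPS15aF, which encode ribosomal protein S15a. They were taken as every gene feature of the array whose identifier starts with 1 of the 6 loci AT1G07770, AT2G19720, AT2G39590, AT3G46040, AT4G29430 and AT5G59850. Each locus had 1 feature, so that 6 of 30386 gene features belonged to the family. The family was chosen by the change in polysomal occupancy of RPS15aA with sucrose, a gain that is given below as a description. The choice named sucrose but no light condition, so the values of RPS15aA are a description in light and in darkness alike, with no test. The other 5 paralogs were not chosen for their own values.

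S15a is a protein of the small (40S) subunit of the cytosolic ribosome and the plant counterpart of bacterial S8. It sits close to the small-subunit rRNA and takes part in the assembly of the subunit. As in most plant ribosomal protein families, several nuclear genes encode it. Paralogs A, C, D and F are the type I genes, whose products belong to cytosolic ribosomes. Paralogs B and E are the divergent type II genes, whose products have been assigned to mitochondria, and mutants of RPS15aE show altered growth.

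The seedlings were of the accession Col-0 and were grown in liquid culture under constant light, for 7 days by the sample labels and 10 days by the methods of the study. Flasks then received 150 mM sucrose or, as the osmotic control, 150 mM sorbitol for 6 h, either in the light or wrapped for darkness. The 4 treatments were therefore light sucrose, light control, dark sucrose and dark control, each with 3 cultures numbered 7, 8 and 9. From each of the 12 cultures, total RNA and RNA of small polysomes from the same extract were hybridised to an AGRONOMICS1 tiling array, giving 24 arrays in 8 groups of 3. Polysomal RNA below means RNA of small polysomes, and RNA of large polysomes was not among these 24 arrays. Values are log2 RMA values, and polysomal occupancy is the polysomal minus the total RNA value of a culture. Arrays were normalised to each other, so a polysomal value gives a transcript's share of polysomal RNA and not the amount of polysomal RNA in the seedlings.

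Array medians were 5.92 to 6.06 and lower quartiles 4.05 to 4.43. In each of the 8 groups the replicate 9 array deviated most from its group, with residual SDs of 0.17 to 0.27 over all 24 arrays. Of the 5 photosynthetic markers, PSBO1 (a photosystem II protein) and RCA (Rubisco activase) lay at or above percentile 99.5 of total RNA values, RBCS1A at 86.6 to 95.6, CAB3 at 70.6 to 94.7 and LHCB2.2 at 13.9 to 68.8. Of the 3 root markers, PYK10 (a root glucosidase) lay at or above percentile 97.0, CASP1 at 81.1 to 96.5 and COBL9 at 48.3 to 68.5. The photosynthetic list of 5 of 5 matched genes summed to 13.52 to 14.03 in light sucrose and 14.40 to 14.60 in light control total RNA, and to 13.68 to 14.03 in dark sucrose and 14.11 to 14.43 in dark control total RNA (log2 of the sum). The root list of 3 of 3 genes summed to 11.93 to 12.32 in light sucrose, 12.40 to 12.72 in light control, 11.15 to 11.59 in dark sucrose and 11.73 to 12.32 in dark control. These sums moved with the treatments, and their part in the results below was not tested. In whole seedlings, fewer cells of a type and less RNA per cell cannot be told apart.

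The 6 features spread over 5 chromosomes. RPS15aA is on the minus strand of chromosome 1, with no span in its identifier, and RefSeq lists 3 transcripts of it. The feature of RPS15aB covers bases 8510020 to 8511339 of chromosome 2 (minus strand), and that of RPS15aC bases 16517588 to 16518265 of the same chromosome and strand. RPS15aD covers bases 16914539 to 16915759 of chromosome 3 (plus), RPS15aE bases 14472400 to 14473621 of chromosome 4 (plus) and RPS15aF bases 24112200 to 24113617 of chromosome 5 (minus). These coordinates are those of the array identifiers, whose genome build is not given in the sources used here. RPS15aB overlaps the plus-strand gene AT2G19710 by 62 bases, and RPS15aF overlaps the plus-strand gene AT5G59860 by 156 bases. How far probes of 1 paralog also bind transcripts of another was not tested.

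The level of RPS15aA in total RNA overlapped between the treatments. It was 9.52, 9.48 and 9.14 in light sucrose and 9.40, 9.72 and 9.50 in light control (replicates 7, 8 and 9). It was 9.34, 9.48 and 9.26 in dark sucrose and 9.59, 9.53 and 9.38 in dark control. Each treatment overlapped its neighbour in the order of means, in which light control was highest at 9.54 ± 0.16 and dark sucrose lowest at 9.36 ± 0.11 (SD, n = 3 each).

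Polysomal RNA of RPS15aA showed another order. The polysomal values were 9.40, 9.86 and 9.37 in light sucrose and 8.13, 8.27 and 8.30 in light control. They were 9.05, 9.23 and 8.53 in dark sucrose and 8.34, 8.44 and 8.14 in dark control. Every sucrose culture lay above every control culture, and all light sucrose values lay above all dark sucrose values, whereas the control groups of light and dark overlapped. Group means were 9.54 ± 0.27 in light sucrose, 8.94 ± 0.36 in dark sucrose, 8.30 ± 0.15 in dark control and 8.23 ± 0.09 in light control.

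**Figure D1:**
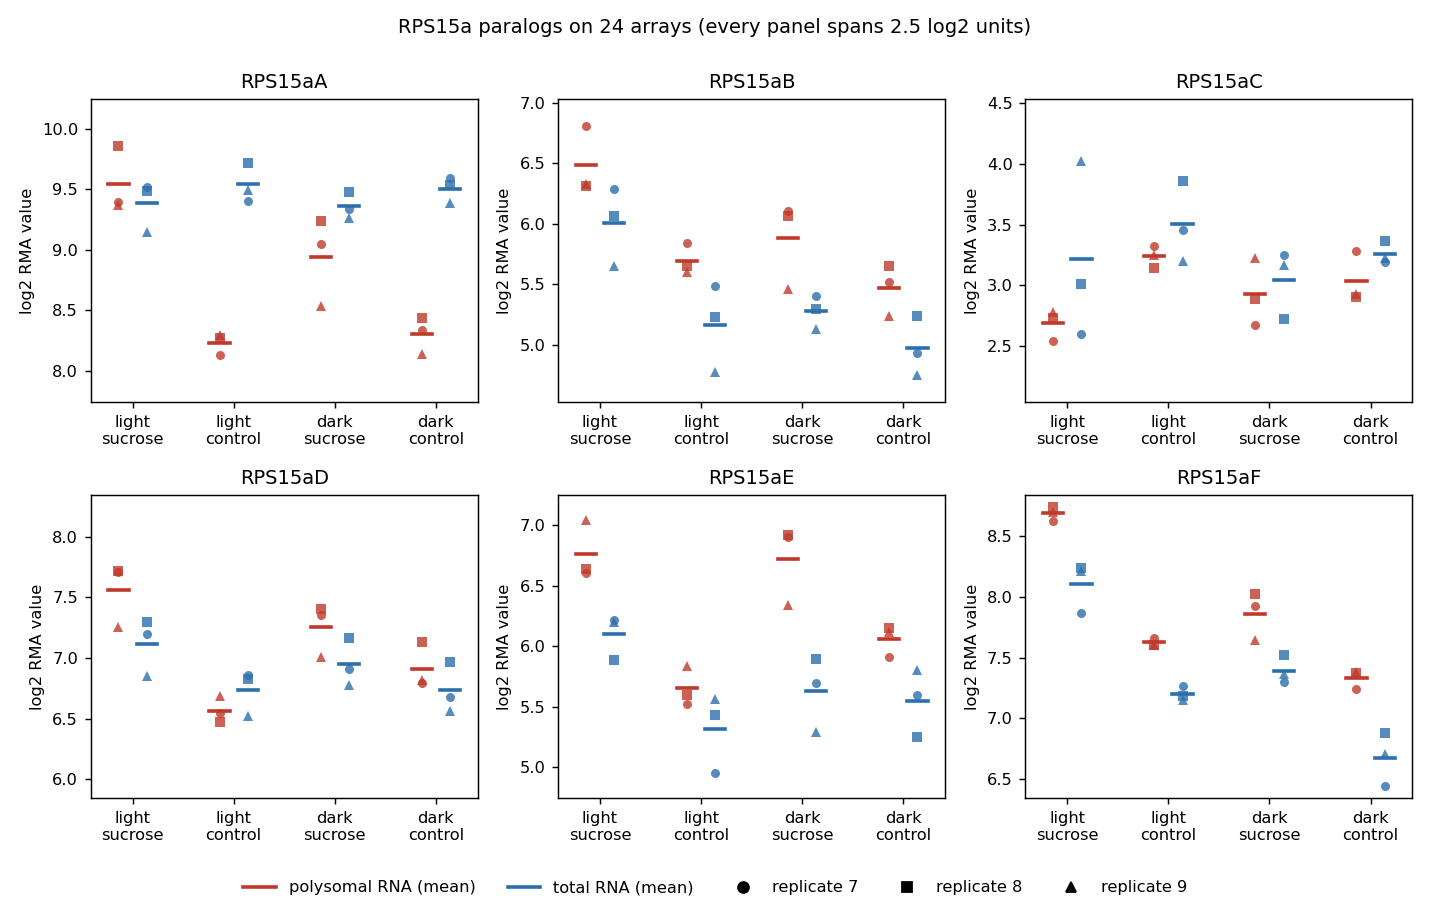
Log2 RMA values of the 6 paralogs (vertical axes, each spanning 2.5 log2 units) on 24 arrays, for polysomal RNA (red) and total RNA (blue) in the 4 treatments; symbols are replicates 7, 8 and 9 and bars are means of 3. RPS15aA has similar total RNA in all treatments and low polysomal values in both controls, between 8.13 and 8.44, whereas RPS15aF is higher with sucrose than in its control in both kinds of RNA.

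The light sucrose arrays thus had 2.47-fold more polysomal RPS15aA than light control (log2 change 1.31, SE 0.16, higher in 3 of 3 replicates), while total RNA changed by -0.16 (SE 0.16). The occupancy change in the light was 1.46 (SE 0.23), with 1.15, 1.82 and 1.42 in replicates 7, 8 and 9. It was the largest among 96 features and lay at percentile 99.89 of all features. The 96 were the 6 paralogs, type II genes included, and 90 features of other 40S ribosomal proteins. The values of RPS15aA given here include those that chose the family.

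In darkness, polysomal RPS15aA was 1.56-fold higher with sucrose than in dark control (log2 change 0.64, SE 0.16), with 0.72, 0.80 and 0.40 in the 3 replicates. Total RNA of RPS15aA changed by -0.14 (SE 0.16), and it was lower in 3 of 3 replicates.

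The occupancy change of RPS15aA in darkness was 0.78 (SE 0.23), with 0.97, 0.86 and 0.52 in the 3 replicates. It ranked 2 among the 96 features, and this value may have entered the choice of the family. The light and dark occupancy changes differed by 0.68 (SE 0.33), with 0.18, 0.96 and 0.90 in the replicates.

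RPS15aA was under-represented in RNA of small polysomes in both controls. Its share in large polysomes was not measured on these arrays. Occupancy was -0.12, 0.37 and 0.23 in light sucrose and -1.27, -1.45 and -1.20 in light control. In dark sucrose it was -0.29, -0.24 and -0.73, and in dark control -1.26, -1.10 and -1.25. The polysomal value of RPS15aA was thus 2.30-fold below its total RNA value in dark control (log2 -1.20, SE 0.16). This was the lowest of the 96 features ranked and at percentile 1.17 of all features. In dark sucrose the difference was -0.42 (SE 0.16), below 0 in 3 of 3 replicates. In light control it was 2.47-fold lower, again the lowest of 96, and in light sucrose 0.16 higher with replicate 7 below 0. Occupancy in the controls is part of the gain that chose the family, so these values and ranks are not independent of that choice.

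Darkness alone left RPS15aA close to its light control. Dark control minus light control was -0.04 in total RNA, 0.07 in polysomal RNA and 0.10 in occupancy (SE 0.16, 0.16 and 0.23), and the replicates of each went in both directions.

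**Figure D2:**
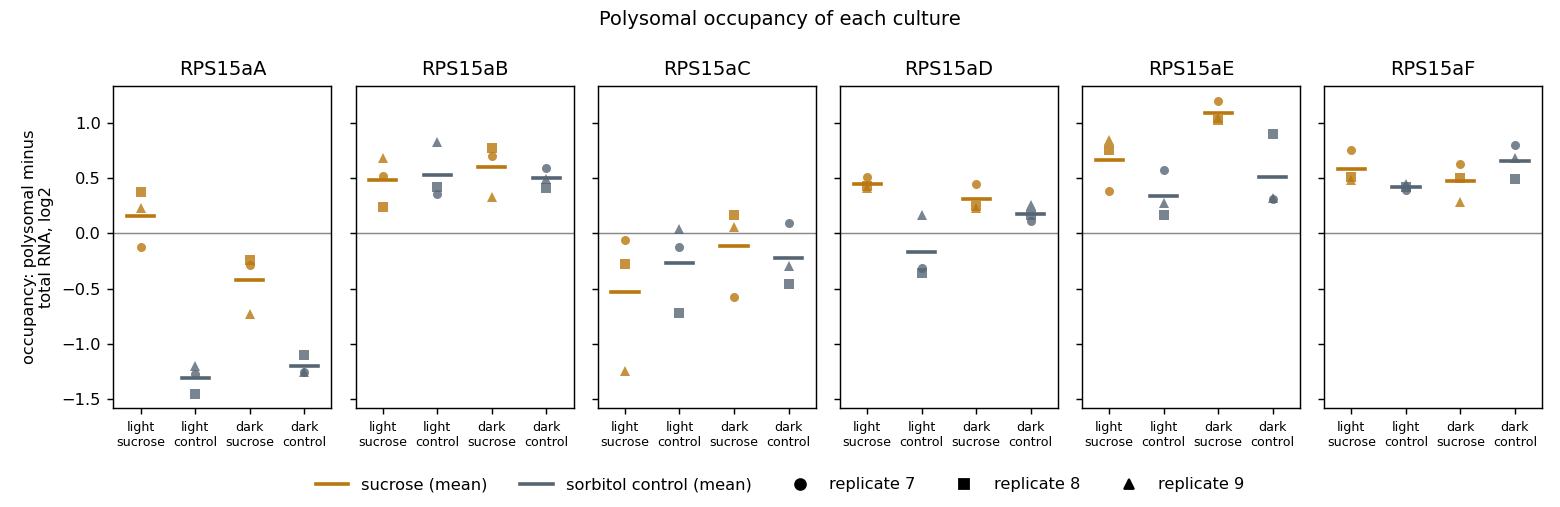
Polysomal occupancy (polysomal minus total RNA of 1 culture, log2, vertical axis) of each paralog in the 4 treatments, with sucrose in orange and sorbitol control in grey; symbols are replicates and bars are means of 3. RPS15aA lies between -1.45 and -1.10 in both controls and between -0.73 and 0.37 with sucrose, while all 12 cultures of RPS15aB, RPS15aE and RPS15aF lie above 0.

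Of the other 5 paralogs, RPS15aB to RPS15aF, 3 were called higher in total RNA with sucrose in the light (adjusted p under 0.05). None was called lower. limma called 28.5% of all features in this comparison, 15.7% higher. Their median change was 0.79, against 0.02 for all features. In polysomal RNA of light cultures 4 of the 5 were called higher, where 31.3% of all features were called and 18.5% were called higher. The median of the 5 was 0.995, against 0.01 for all features. For occupancy in the light 0 of the 5 passed, 1 at an unadjusted p under 0.05, with 0.359% of all features called.

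RPS15aF had the smallest SE of the family (0.12) and responded in every sucrose comparison of levels. In polysomal RNA it was 8.63, 8.75 and 8.70 in light sucrose and 7.66, 7.61 and 7.60 in light control. In total RNA it was 7.87, 8.24 and 8.22 in light sucrose and 7.27, 7.18 and 7.15 in light control. The groups did not overlap in either kind of RNA. Polysomal RPS15aF rose 2.09-fold (log2 change 1.07, adjusted p = 1.21e-06) and total RNA 1.87-fold (0.91, adjusted p = 9.4e-06), so that the occupancy change was 0.16 (95% interval -0.20 to 0.52).

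RPS15aF was also the 1 paralog of the 5 whose total RNA passed in darkness, where 31.7% of all features were called and 15.5% were called higher. Its total RNA values were 7.30, 7.52 and 7.36 in dark sucrose and 6.44, 6.88 and 6.70 in dark control, without overlap. The rise was 0.72 (SE 0.12, adjusted p = 9.8e-05). Polysomal values were 7.92, 8.02 and 7.64 in dark sucrose and 7.24, 7.37 and 7.38 in dark control, a rise of 0.53 (adjusted p = 0.00195), which was not called without replicate 7 (0.46, adjusted p = 0.0508) or without replicate 8 (0.47, adjusted p = 0.0647).

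Total RNA of RPS15aF was also lower in dark control than in light control, the 1 call of the 5 paralogs in this comparison. Dark control values of 6.44, 6.88 and 6.70 stood against light control values of 7.27, 7.18 and 7.15. The change was -0.53 (SE 0.12, adjusted p = 0.00847, lower in 3 of 3 replicates), and of all features 10% were called and 4.35% were called lower. The call was lost without replicate 7 (-0.38, adjusted p = 0.226), without replicate 8 (-0.64, adjusted p = 0.0837) and when only the arrays compared were fitted (adjusted p = 0.0812). In polysomal RNA the change was -0.29 (adjusted p = 0.142), where 11.1% of features were called, and after quantile normalization of all arrays it was -0.37 (adjusted p = 0.0433). In the other readouts of dark against light control, 0 of the 5 paralogs were called in polysomal RNA or occupancy, with 2 and 0 at an unadjusted p under 0.05, and 0% of features were called for occupancy.

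The total RNA groups of RPS15aF could be ordered more finely than those of its paralogs. In total RNA no group overlapped its neighbour, in the order light sucrose (8.11 ± 0.21), dark sucrose (7.39 ± 0.11), light control (7.20 ± 0.06) and dark control (6.67 ± 0.22). In polysomal RNA the order was the same, and dark sucrose (7.86 ± 0.20) overlapped light control (7.63 ± 0.03). How many features outside the family have groups that separate in this way was not tested, so the order is a description. The gene on the other strand, AT5G59860, changed by 0.66 (SE 0.27, adjusted p = 0.0729) with sucrose in the light and 0.09 in darkness in total RNA, and its values correlated with those of RPS15aF at r = 0.437 over the 24 arrays.

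RPS15aD, the next type I gene, rose with sucrose in polysomal RNA of light cultures. Polysomal values were 7.71, 7.72 and 7.26 in light sucrose and 6.55, 6.47 and 6.68 in light control, with no overlap. The rise was 1.99-fold (log2 change 0.995, SE 0.17, adjusted p = 7.91e-05). Total RNA values of 7.20, 7.29 and 6.85 in light sucrose and 6.86, 6.83 and 6.52 in light control overlapped, and their change was 0.38 (SE 0.17, adjusted p = 0.0994). With replicate number as a block the adjusted p was 0.0182, and without replicate 9 the change was 0.40 with an adjusted p of 0.0402.

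RPS15aD also had the largest occupancy change of the 5 in the light, 0.62 (SE 0.23, unadjusted p = 0.0158, adjusted p = 0.47), with 0.82, 0.79 and 0.24 in the 3 replicates. Its occupancy was 0.51, 0.43 and 0.41 in light sucrose and -0.31, -0.36 and 0.16 in light control. In darkness it was 0.45, 0.25 and 0.23 with sucrose and 0.11, 0.17 and 0.25 in control. Light control was thus the only group in which RPS15aD had cultures with a lower polysomal than total RNA value.

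In darkness the polysomal values of RPS15aD were 7.36, 7.41 and 7.00 with sucrose and 6.79, 7.13 and 6.82 in control. These groups overlapped, and the change of 0.34 (SE 0.17) was not called (adjusted p = 0.131), although it was called with the replicate block (0.0295) and without replicate 9 (0.42, adjusted p = 0.03). Total RNA values of 6.91, 7.16 and 6.77 in dark sucrose and 6.68, 6.96 and 6.56 in dark control overlapped as well (0.21, adjusted p = 0.378). Dark control against light control, the polysomal change was 0.35 (adjusted p = 0.209), and without replicate 9 it was 0.45 (adjusted p = 0.0473).

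RPS15aC, the remaining type I gene, was near the bottom of the array. Its values lay below the lower quartile of the array on 24 of 24 arrays. In polysomal RNA they were 2.54, 2.73 and 2.78 in light sucrose and 3.32, 3.14 and 3.25 in light control, a change of -0.55 (SE 0.25, adjusted p = 0.115, lower in 3 of 3 replicates), with an adjusted p of 0.0102 when only the arrays compared were fitted. In total RNA, light sucrose gave 2.60, 3.01 and 4.03 and light control 3.45, 3.86 and 3.20. The change in total RNA was -0.29 (adjusted p = 0.474), and without replicate 9, which lay 0.83 higher with sucrose, it was -0.85 with an adjusted p of 0.00909. In darkness all 12 of its values lay between 2.67 and 3.36. No comparison of RPS15aC passed in the fit of all arrays. Its groups overlapped their neighbours in the order of means in both kinds of RNA. The polysomal values in light sucrose all lay below those in light control, which is not its neighbour in that order.

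**Figure D3:**
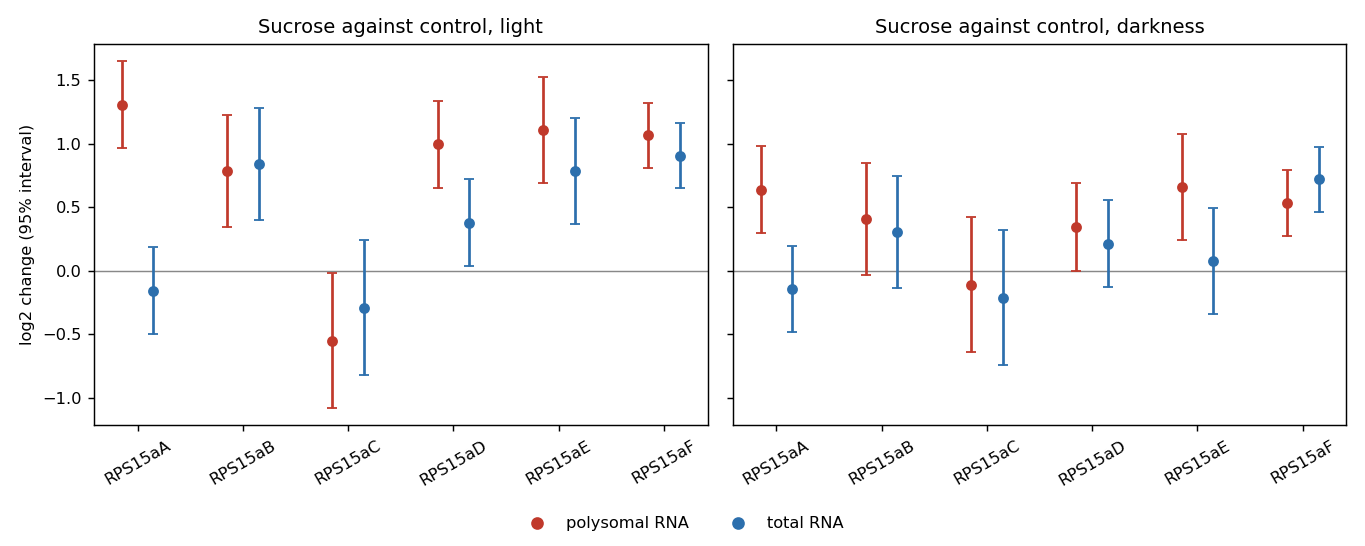
Log2 change with sucrose against control (vertical axis) of each paralog in the light (left) and in darkness (right), in polysomal RNA (red) and total RNA (blue), with 95% intervals of the fit. RPS15aA has a polysomal change of 1.31 in the light beside a total RNA change of -0.16, RPS15aC lies below 0 in all 4 comparisons, and RPS15aF lies above 0 with its whole interval in all 4.

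Both type II genes rose with sucrose in the light, in total and in polysomal RNA. RPS15aB had 6.81, 6.31 and 6.33 in polysomal RNA of light sucrose and 5.84, 5.65 and 5.60 in light control. In total RNA it had 6.29, 6.07 and 5.65 in light sucrose and 5.49, 5.23 and 4.77 in light control. Neither pair of groups overlapped. The polysomal rise was 0.79 (SE 0.21, adjusted p = 0.00626) and that in total RNA 0.84 (SE 0.21, adjusted p = 0.00437), and the occupancy change was -0.05 (95% interval -0.68 to 0.57). The total RNA call was lost without replicate 8 (0.84, adjusted p = 0.0855), and the polysomal call without replicate 7 (0.70, adjusted p = 0.0833) or replicate 8 (0.85, adjusted p = 0.0751).

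In darkness RPS15aB had polysomal values of 6.11, 6.07 and 5.46 with sucrose and 5.52, 5.65 and 5.24 in control, and total RNA values of 5.41, 5.30 and 5.13 with sucrose and 4.93, 5.24 and 4.75 in control. The groups overlapped in both. The changes of 0.41 in polysomal RNA (adjusted p = 0.165) and 0.30 in total RNA (adjusted p = 0.316) were not called, and the replicate block called the polysomal change (adjusted p = 0.0215), as did the fit without replicate 9 (0.50, adjusted p = 0.0399). RPS15aB lay below the median of the array on 17 of 24 arrays. The overlapping gene AT2G19710 rose by 0.61 in the light and 1.15 in darkness in total RNA, and correlated with RPS15aB at r = 0.194 over the 24 arrays.

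RPS15aE rose with sucrose in polysomal RNA in both light and dark. In the light its polysomal values were 6.60, 6.64 and 7.04 with sucrose and 5.53, 5.59 and 5.84 in control. In darkness they were 6.90, 6.92 and 6.34 with sucrose and 5.91, 6.15 and 6.12 in control. Neither pair of groups overlapped, and the rises were 1.11 in the light (SE 0.20, adjusted p = 1.9e-04) and 0.66 in darkness (SE 0.20, adjusted p = 0.0147). The dark call was lost without replicate 7 (0.49, adjusted p = 0.259) and without replicate 8 (0.60, adjusted p = 0.138).

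Total RNA of RPS15aE was 6.22, 5.89 and 6.20 in light sucrose and 4.95, 5.43 and 5.56 in light control, a rise of 0.79 (SE 0.20, adjusted p = 0.00463). Without replicate 7, in which the change was 1.27, it was 0.55 with an adjusted p of 0.214. In dark sucrose total RNA was 5.70, 5.89 and 5.29 and in dark control 5.60, 5.25 and 5.80, and these groups overlapped (0.08, adjusted p = 0.828). The occupancy change of RPS15aE was 0.32 in the light and 0.58 in darkness (95% interval -0.01 to 1.17, adjusted p of 1 for both). It lay below the array median on 14 of 24 arrays.

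In darkness, then, 2 of the 5 paralogs were called in polysomal RNA, RPS15aE and RPS15aF, both higher, where 31.4% of all features were called and 16.3% were called higher. With replicate number as a block 4 of 5 were called, RPS15aB and RPS15aD being added. For occupancy in darkness 0 of the 5 were called and 0 had an unadjusted p under 0.05, and 0% of all features were called.

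The difference between the light and the dark sucrose effect was tested for the same 5 paralogs. None passed in total RNA, where 8.94% of features were called, or in polysomal RNA, where 11.5% were called. At an unadjusted p under 0.05 there was 1 paralog in total RNA, RPS15aE (difference 0.71, adjusted p = 0.132), and there were 2 in polysomal RNA. In polysomal RNA the sucrose effect of RPS15aF was larger in the light by 0.53 (adjusted p = 0.0522) and that of RPS15aD by 0.65 (adjusted p = 0.078), each larger in 3 of 3 replicates. With the replicate block both were called, RPS15aF with an adjusted p of 0.0233 and RPS15aD with 0.0113, and without replicate 9 RPS15aD was called (0.79, adjusted p = 0.0177). For occupancy 0 of the 5 passed and 0% of all features were called, with 0 of the 5 at an unadjusted p under 0.05. The corresponding value for polysomal RPS15aA was 0.67 (SE 0.23, no test), larger in the light in 3 of 3 replicates. RPS15aA, RPS15aD and RPS15aF ranked 38, 40 and 51 among the 96 features in this polysomal difference. It was called higher for 27 of 90 features of other 40S proteins (30%, median 0.56). For 60S proteins it was called higher for 62 of 138 features (44.9%, median 0.61).

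Polysomal against total RNA, the paralogs differed in where they stood within a treatment. RPS15aF was higher in polysomal than in total RNA by 0.58 in light sucrose (adjusted p = 0.00337), 0.42 in light control (0.026), 0.47 in dark sucrose (0.0131) and 0.66 in dark control (8.14e-04). RPS15aE was higher by 0.66 in light sucrose (adjusted p = 0.0337) and 1.09 in dark sucrose (9.75e-04), and by 0.34 in light control (0.305) and 0.51 in dark control (0.071). The value of RPS15aE in dark sucrose, 2.13-fold, lay at percentile 99.92 of all features. It was the largest of the 96 features ranked, in which this type II gene is counted beside the 40S genes. Its occupancy there was 1.20, 1.02 and 1.05 in the 3 replicates, each above all values of RPS15aE in the other treatments.

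Of the 5 paralogs, 2 were called in light sucrose (of all features 13.2%, and 8.81% higher), 1 in light control (13.4%, and 7.68% higher), 2 in dark sucrose (17.6%, and 10% higher) and 1 in dark control (23.2%, and 12.1% higher). These were 6 calls, all of them higher in polysomal RNA. With replicate number as a block there were 11 calls, and with culture as a random block 12. The added calls were RPS15aB in all 4 treatments, RPS15aD in light sucrose and, with the culture block, RPS15aE in dark control (adjusted p = 0.0101). RPS15aB was higher in polysomal RNA by 0.48 in light sucrose, 0.53 in light control, 0.60 in dark sucrose and 0.50 in dark control. Its adjusted p values were 0.148, 0.107, 0.0546 and 0.0933 without a block and 0.0176, 0.00877, 0.0039 and 0.00966 with the replicate block. RPS15aD was higher by 0.45 in light sucrose (adjusted p = 0.0823, with the replicate block 0.0135).

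Several of these polysomal-against-total calls rested on all 3 replicates. That of RPS15aF in light control was lost without any 1 of them (adjusted p of 0.151, 0.218 and 0.11 without replicates 7, 8 and 9), as was that of RPS15aE in light sucrose (0.164, 0.214 and 0.0523). RPS15aF lost its call in light sucrose without replicate 7 (0.119) or 8 (0.0711) and in dark sucrose without replicate 7 (0.202) or 8 (0.144). RPS15aE in dark sucrose lost it without replicate 7 (1.03, adjusted p = 0.0771). That of RPS15aF in dark control was kept in each case. Quantile normalization of all arrays ended those of RPS15aE in light sucrose (adjusted p = 0.0607) and of RPS15aF in light control (0.0636) and dark sucrose (0.0951), and fitting only the arrays compared ended those of RPS15aE in light sucrose (0.0559) and RPS15aF in dark sucrose (0.112).

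**Figure D4:**
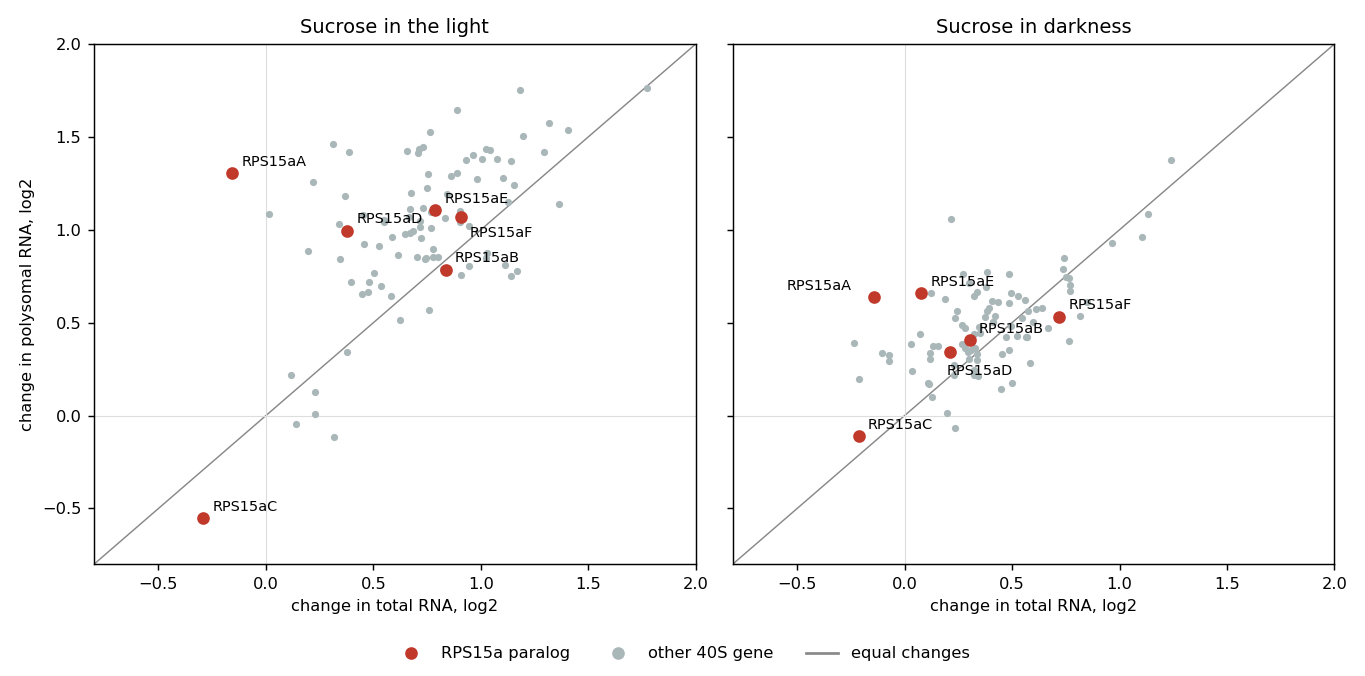
Change with sucrose in total RNA (horizontal axis, log2) and in polysomal RNA (vertical axis, log2) of the 96 features ranked, in the light (left) and in darkness (right). Red points are the RPS15a paralogs, with the type II genes RPS15aB and RPS15aE among them. Grey points are the other 40S genes, and the line marks equal changes. In the light RPS15aA lies at -0.16 and 1.31, farthest above the line, and RPS15aC at -0.29 and -0.55.

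Beside the family, 90 features of other 40S proteins were measured, for 88 of 94 loci of the study's list of ribosomal protein genes. With sucrose in the light 75 of them were called higher in total RNA (median 0.74) and 84 in polysomal RNA (median 1.04). None was called lower in either. These were 83.3% and 93.3% of the 90, where 15.7% and 18.5% of all features were called higher. In darkness 34 were called higher in total RNA (median 0.35) and 52 in polysomal RNA (median 0.47). These were 37.8% and 57.8% of the 90, where 15.5% and 16.3% of all features were called higher. Among 138 features of 60S proteins, 117 were called higher and 1 lower in total RNA of light cultures (median 0.79). In polysomal RNA 121 were called higher and none lower (median 1.09). In darkness 67 of these 60S features were called higher and none lower in total RNA (median 0.40). Their polysomal RNA gave 81 called higher and 1 called lower (median 0.46). In total RNA of light cultures RPS15aC and RPS15aA had the lowest changes of the 96 features ranked (-0.29 and -0.16). The total RNA change of RPS15aA enters the occupancy gain that chose the family, so its rank is not independent of that choice. RPS15aC was near the bottom of every array, and without replicate 7 its change was -0.01, against -0.29 for RPS15aA.

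Occupancy changes of other 40S genes in the light had a median of 0.28, and 2 of 90 were called (2.22%, against 0.359% of all features). The 3 largest were those of RPS12A (1.15), RPS18C (1.07) and RPS25E (1.04), below the 1.46 of RPS15aA. RPS18C also had little change in total RNA (0.02), as had RPS25E (0.22). The 3 smallest were those of RPS15F (-0.43), a member of a different family despite its name, RPS9C (-0.39) and RPS27A (-0.39).

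Across the 24 arrays, the gene features most like RPS15aA were AT1G63980 (r = 0.949), RPS25E (0.943), ATRBP45C, which encodes an RNA-binding protein (0.933), AT1G12120 (0.931) and AT1G30880 (0.931), of 15193 features searched. Each of the 5 had a larger change in polysomal than in total RNA with sucrose in the light, AT1G30880 for example 1.24 and -0.24. The feature most like RPS15aF was AT4G08520 (r = 0.969), that most like RPS15aB was PCNA2, a sliding clamp of DNA replication (0.956), and that most like RPS15aE was AT2G03430 (0.945). RPS15aD was most like AT3G07440 (0.904) and RPS15aC most like AT1G15825 (0.804). These values are descriptions, since the points share cultures and treatments and the features were picked for their likeness.

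Within the family, RPS15aA correlated positively with 4 of its 5 paralogs in polysomal RNA, and negatively with RPS15aC, which was near the bottom of the array. It correlated closely with none of them in total RNA. These arrays share cultures and treatments. The family was chosen for the occupancy gain of RPS15aA, so these values are not independent of that choice. Over the 12 polysomal arrays its r was 0.843 with RPS15aB, 0.918 with RPS15aD, 0.834 with RPS15aE, 0.915 with RPS15aF and -0.784 with RPS15aC. Over the 12 total RNA arrays the values were -0.082, 0.099, -0.208, -0.394 and -0.199 in the same order. RPS15aB and RPS15aF had the highest r of any pair over all 24 arrays (0.881).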

How the data were processed

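Total RNA and small-polysome RNA of 12 cultures were measured on 24 AGRONOMICS1 arrays. The deposited values are log2 RMA values, which the authors made with aroma.affymetrix (background correction, normalization, probe summarization; version not given in the sources used here), with total and polysomal arrays together. RMA evens out the distributions of arrays, so changes are relative to the other transcripts on an array. No array depth exists, and the number of arrays limits the precision. The 371 array control rows were left out, and 30386 gene features of 30269 loci were kept without a filter. Of the loci, 29707 were named through RefSeq.

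Groups came from the sample labels. The log2 values of all features were fitted with limma 3.58.1 (R 4.3.3) as 8 group means, with 1 estimate of the spread (16 residual degrees of freedom, 3.57 prior). P-values were adjusted by Benjamini-Hochberg within each of 16 contrasts, two-sided, and calls needed an adjusted p under 0.05, whatever the fold. Occupancy change is the polysomal minus the total RNA change. The study states that cultures were biological replicates, with 3 per treatment. The fit had no term for culture and treated all arrays as independent, with the spread pooled over the 8 groups. Within 1 kind of RNA, p-values therefore rest on this pooled spread between cultures. Total and polysomal arrays of 1 culture deviated together (r = 0.211 to 0.598). For occupancy and for polysomal against total RNA, p-values therefore do not measure the spread between cultures. The fit was tested on simulated data with independent arrays, so that test does not cover deviations shared within a culture or a replicate number. Figures were drawn with matplotlib 3.10.9 (Python 3.11.15).

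Members, lists and tests were chosen with earlier results of these data known. Planned tests of RPS15aA in darkness are not reported, since the choice of the family may have used those values. Named genes were the 6 paralogs, the 5 features most like RPS15aA and the 1 most like each other paralog (Pearson's r over 24 arrays, features with a mean above the median of feature means), and the 3 other 40S features with the largest and smallest occupancy change in the light. The 2 genes overlapping a paralog on the other strand were named after their positions were seen. Same-numbered cultures deviated together in each pair behind a sucrose effect (r = 0.109 to 0.387 between deviations from group means), as did total and polysomal RNA of 1 culture (0.211 to 0.598), and a replicate block was therefore run beside each result. Dark control and light control were less alike (0.015 to 0.366). The correlation used for culture as a random block was 0.417. The other alternatives were only the arrays compared, an intensity trend with robust prior, a filter on the mean, 3 other scalings, a fold of 2 in addition, adjustment over all contrasts, and leaving out each replicate. Promoter motifs and sequences were not analysed here.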

Additional observations from a re-analysis of the deposited data

How the results depend on the processing

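Every call made for RPS15aB to RPS15aF kept its direction under the 13 alternatives that gave it a value. The replicate block, whose added calls stand beside the results above, raised the number of the 5 other paralogs called in polysomal RNA in darkness to 4, against 2, in the light minus dark difference over 3 readouts to 2, against 0, and in polysomal against total RNA over 4 treatments to 11, against 6. It changed no call other than those printed with the results above. Culture as a random block gave 1 and 12 for the last 2 of these. The filter on the mean left RPS15aB, RPS15aC and RPS15aE without a value, and gave 1 call for total RNA in the light, 2 for polysomal RNA in the light, 1 for polysomal RNA in darkness and 2 for the light minus dark difference. Requiring a fold of 2 left 0, 2, 0 and 0 calls for total and polysomal RNA in the light and in darkness, 0 for dark against light control over 3 readouts and 1 for polysomal against total RNA. Fitting only the arrays compared gave 0 calls for dark against light control, and both quantile normalizations gave 2, against 1. Quantile normalization of all arrays gave 3 calls for polysomal against total RNA. An intensity trend, median centring and adjustment over all contrasts each gave 1 call in the light minus dark difference.

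Leaving out 1 replicate at a time gave 2 to 5 calls for total RNA in the light, 0 to 4 for polysomal RNA in darkness (0 without replicate 7 or 8, 4 without replicate 9), 0 to 2 for dark against light control, 0 to 1 for the light minus dark difference and 1 to 7 for polysomal against total RNA. Values that changed sign were all uncalled or, for RPS15aA, untested. With quantile normalization of all arrays they were RPS15aA in the light minus dark difference in total RNA (0.0284, and 0.0301 with total and polysomal arrays normalized apart) and in polysomal RNA of dark against light control (-1e-04), occupancy of RPS15aB in dark against light control (0.0119) and RPS15aC polysomal against total RNA in dark sucrose (0.10) and dark control (0.0303). With a replicate left out, RPS15aA ranged over -0.15 to 0.04 in total RNA and -0.02 to 0.18 in occupancy of dark against light control, and over -0.20 to 0.10 in the light minus dark difference in total RNA. RPS15aB occupancy ranged over -0.16 to 0.0096 for sucrose in the light, -0.0228 to 0.23 in darkness, -0.17 to 0.12 for dark against light control and -0.26 to 0.0324 for the light minus dark difference. RPS15aC ranged over -0.61 to 0.25, -0.16 to 0.49, -0.0603 to 0.24 and -0.91 to 0.28 for the same 4, -0.35 to 0.001 and -0.32 to 0.14 for sucrose in darkness in total and polysomal RNA, -0.56 to 0.34 for the light minus dark difference in total RNA and -0.26 to 0.11 for polysomal against total RNA in dark sucrose. RPS15aD in total RNA of dark against light control ranged over -0.0701 to 0.0872. RPS15aE ranged over -0.20 to 0.37 for total RNA with sucrose in darkness, and its occupancy over -0.11 to 0.38 for dark against light control and -0.62 to 0.15 for the light minus dark difference. The causes were not tested. RPS15aB, RPS15aC and RPS15aE gave signals near or below the array median. The SEs of the occupancy changes with sucrose were 0.17 to 0.36, from groups of 3 and a fit without a term for culture.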
